A study of Mus musculus with 16 samples.

Results

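The GTPases of immunity-associated proteins (GIMAP) are a family of GTP-binding proteins found mostly in lymphocytes. The 8 genes Gimap1, Gimap3, Gimap4, Gimap5, Gimap6, Gimap7, Gimap8 and Gimap9 were chosen with earlier results of these data known. All probe sets annotated to them were taken, whatever their values. They came to 9 of the 45141 probe sets on the array and 8 of the 17097 genes. Gimap4 had 2 probe sets and each of the other genes 1, and 0 of the 9 were also annotated to another gene.

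The RNA came from CD4 T cells of the spleens of NOD/LtJ mice, a strain that develops autoimmune diabetes, at 6 weeks of age. Regulatory T cells (Tregs), the suppressive CD4 T cells whose identity rests on Foxp3, were compared with conventional T cells (Tconv). Mice called WT in the labels carried the transgene Tg(Foxp3-EGFP/cre)1aJbs, which drives an EGFP and Cre fusion from Foxp3 sequences, so the WT mice are themselves transgenic. Mice called KI carried the knock-in allele Foxp3tm2Ayr, named Foxp3gfp in the labels, at the Foxp3 gene itself, and no other treatment was given to either genotype. WT Tregs, WT Tconv, KI Tregs and KI Tconv had 4 Affymetrix arrays each, and arrays are named here by group and a number from 1 to 4. No label states that replicate arrays are of different mice, so p-values measure only the spread between these samples, which may be technical.

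GIMAP proteins share a GTP-binding domain related to that of the septins, and most of them sit on membranes inside the cell, such as those of the endoplasmic reticulum, lysosomes or lipid droplets. They are best known for keeping resting lymphocytes alive. Loss of Gimap5 causes severe lymphopenia in rodents, and the inactivating Gimap5 mutation of the BB rat is a major part of that strain's susceptibility to autoimmune diabetes. The genes lie side by side in 1 cluster on mouse chromosome 6. In the RefSeq gene order the cluster runs Gimap8, Gimap9, Gimap4, Gimap6, Gimap7, Gimap1, Gimap5 and Gimap3. Gimap6 and Gimap3 are read from the minus strand and the others from the plus strand, so the neighbours Gimap6 and Gimap7 are read away from each other.

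Foxp3 averaged 9.86 ± 0.20 (SD, n = 4, log2 value) in WT Tregs and 9.76 ± 0.29 in KI Tregs, against 4.63 ± 0.32 and 3.69 ± 0.09 in Tconv, so the cell type labels were borne out. Cd3e, a chain of the T cell receptor complex, averaged between 8.84 and 8.89 in all 4 groups. Cd4 averaged 7.25 in WT Tregs and 7.5 in KI Tregs, against 7.96 and 7.99 in Tconv. Values under about 5 lie near background, since 23 nonspecific control probe sets reached 4.71. As labelled, even the Tregs were sorted as GFP-negative, so their gate is unclear. The array numbers in the sample titles fall into 4 to 9, all WT, 13 to 23, all KI, and 24 to 27, which hold array 4 of each group. No label calls these sets a batch, but on each of the arrays 25, 26 and 27 1 GIMAP probe set stood apart from the rest of its group, and the Treg and Tconv differences of the 4 GIMAP genes that passed are also given without arrays 24 to 27.

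The promoters of the 4 genes that differed between Tregs and Tconv are shown because these genes moved in opposite directions within the same cluster. Each window is the 250 bases before the gene's start in RefSeq (GRCm38.p6), 5′ to 3′ on the strand of the gene, and all 8 GIMAP genes had an entry. Gimap8 had 2 windows, which makes 9. A GIMAP gene is counted below if any of its windows held a match, while the shares of all promoters are per window. Capitals mark matches to the forkhead core TAAACA, the RUNX site TGTGGT and the ETS core GGAAGT, on either strand, so that a RUNX site on the opposite strand reads ACCACA.
Gimap7, chr6:48718371-48718620, plus strand: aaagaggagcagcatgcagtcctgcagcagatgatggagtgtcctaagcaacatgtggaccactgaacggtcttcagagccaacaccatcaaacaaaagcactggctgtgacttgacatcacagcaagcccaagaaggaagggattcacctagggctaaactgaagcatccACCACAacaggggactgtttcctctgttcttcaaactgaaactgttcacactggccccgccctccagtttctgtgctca
Gimap3, chr6:48770852-48771101, minus strand: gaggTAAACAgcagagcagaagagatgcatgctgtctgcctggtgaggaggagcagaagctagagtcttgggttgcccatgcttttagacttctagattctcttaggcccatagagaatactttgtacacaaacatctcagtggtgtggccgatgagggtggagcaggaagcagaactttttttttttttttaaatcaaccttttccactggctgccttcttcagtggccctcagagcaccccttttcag
Gimap6, chr6:48708245-48708494, minus strand: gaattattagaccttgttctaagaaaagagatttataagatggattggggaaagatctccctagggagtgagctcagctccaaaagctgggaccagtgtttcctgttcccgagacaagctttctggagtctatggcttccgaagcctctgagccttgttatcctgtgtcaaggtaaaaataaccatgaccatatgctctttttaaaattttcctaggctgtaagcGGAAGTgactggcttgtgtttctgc
Gimap4, chr6:48684328-48684577, plus strand: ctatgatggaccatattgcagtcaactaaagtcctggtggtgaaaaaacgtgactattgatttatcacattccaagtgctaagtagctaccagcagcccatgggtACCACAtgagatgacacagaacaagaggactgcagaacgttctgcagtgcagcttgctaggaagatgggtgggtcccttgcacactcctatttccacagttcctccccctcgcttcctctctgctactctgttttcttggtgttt
The Gimap7 and Gimap4 windows each held a RUNX match, at 74 to 79 and at 140 to 145 bases before the start. In the Gimap6 window an ETS match lay 20 to 25 bases before the start, and the Gimap3 window held a forkhead match at 241 to 246 bases. A RUNX match was present in 3 of the 8 GIMAP promoters (Gimap4, Gimap7 and Gimap1) and in 14% of the 32851 mouse promoter windows of the same length that were scanned. The forkhead core was present in 1 of 8 against 12.0% of all windows, and the ETS core in 2 of 8 (Gimap6 and Gimap5) against 19.7%. The KLF box CCACCC, also searched on both strands and left in lower case above, was present in 5 of 8 against 28.1%. The TCF/LEF core CTTTGA was, on both strands, absent from all 9 windows, and so was the GATA core AGATAA, against 13.8% and 10.0% of all windows that held them. No match overlapped another. These are letter matches in short windows, and nothing in these data measures binding there.

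Tregs and Tconv were compared first, within each genotype. Gimap7 and Gimap3 were higher in Tregs, Gimap4 and Gimap6 were lower, and the other 4 genes did not pass the test, so the cluster as a whole was not shifted 1 way. Gimap7 had the largest difference of the 8, 1.97-fold in WT and 2.4-fold in KI mice, while the others differed by 1.39-fold or less. In WT mice 4 of the 8 genes passed (adjusted p under 0.05, limma), against 34.6% of the 8139 genes tested. The 2 higher and 2 lower calls stand beside 16.7% of all genes higher and 17.9% lower. In KI mice the count was again 4 of 8, against 41.1% of all genes, with 2 higher beside 21.2% and 2 lower beside 19.9%. With backgrounds this high, a count of 4 in 8 is not a result about the family. The median Treg minus Tconv log2 difference of the 8 genes was 0.06 in WT and 0.02 in KI mice, beside -0.03 and -0.02 over all genes. In bulk RNA such as this, fewer cells that express a gene and less RNA per cell cannot be told apart.

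**Figure D1:**
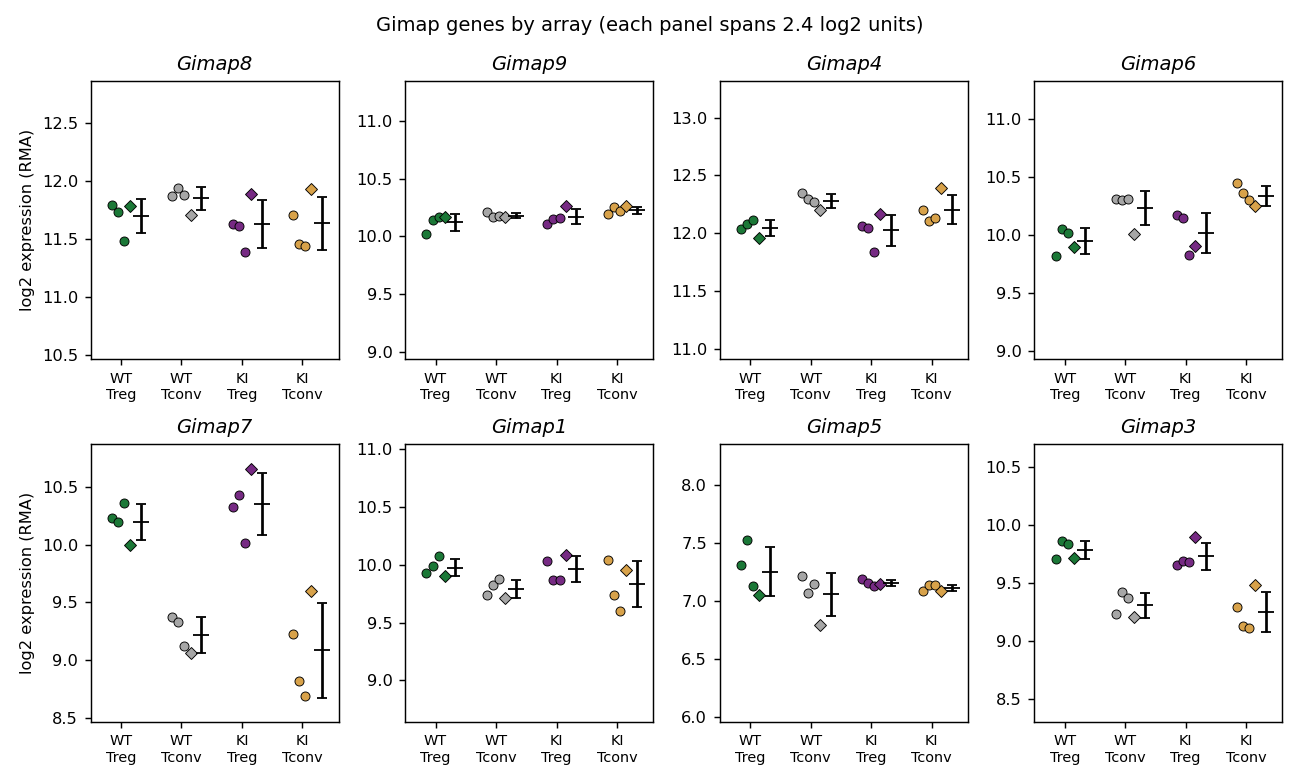
Log2 expression (RMA) of the 8 GIMAP genes on each of the 16 arrays, in the order of the genes along the cluster, with each panel spanning 2.4 log2 units. Points are arrays (diamonds are those numbered 24 to 27), bars are the mean ± SD of 4 arrays, and only Gimap7 and Gimap3 have every Treg array above every Tconv array in both genotypes.

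Gimap7, whose human counterpart is known to activate GTP hydrolysis in other GIMAP proteins by pairing with them, read 10.23, 10.19, 10.36 and 10.00 (log2 values) in WT Tregs and 9.37, 9.33, 9.12 and 9.06 in WT Tconv. In KI Tregs the 4 arrays read 10.32, 10.43, 10.01 and 10.65, and in KI Tconv 9.23, 8.82, 8.69 and 9.60. Every Treg array lay above every Tconv array in both genotypes, and the KI Tconv arrays were the most spread, with array 4 highest. The WT Treg level of Gimap7 was 1.97 times that of WT Tconv (95% interval 1.55 to 2.49, log2 difference 0.98, SE 0.16, adjusted p = 0.000116). The KI difference was 2.4-fold (95% interval 1.90 to 3.05, log2 difference 1.27, SE 0.16, adjusted p = 4.88e-06). Of the 8139 genes, 403 (5.0%) had a larger Treg excess in WT mice and 385 (4.7%) in KI mice, so Gimap7 ranked high without being extreme. Within arrays 24 to 27, with 1 array a group, the log2 differences were 0.94 in WT and 1.05 in KI. Without them they were 0.99 (adjusted p = 3.6e-05) and 1.34 (adjusted p = 1.28e-06).

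Gimap3, a membrane-anchored relative of Gimap5 that has been reported to bind BCL2 proteins, read 9.71, 9.86, 9.84 and 9.72 in WT Tregs and 9.23, 9.42, 9.37 and 9.21 in WT Tconv. The KI Tregs read 9.66, 9.69, 9.68 and 9.90 and the KI Tconv 9.29, 9.13, 9.11 and 9.48. Groups did not overlap in either genotype, and array 4 was the highest of each KI group. The Treg excess was 1.39-fold in both genotypes, with log2 differences of 0.48 in each (SE 0.08, adjusted p = 0.000198 in WT and 0.000159 in KI). Without arrays 24 to 27 they were 0.46 in WT (adjusted p = 0.000182) and 0.50 in KI mice (adjusted p = 8.44e-05), and within those arrays 0.52 and 0.42. Gimap3 and Gimap5 are close paralogs, and an older synonym of Gimap3 in RefSeq is Gimap5, so keeping the 2 apart rests on the array annotation.

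Gimap4, which has been reported to speed the death of T cells that have entered apoptosis and to take part in cytokine secretion, read 12.04, 12.08, 12.12 and 11.96 in WT Tregs and 12.35, 12.30, 12.27 and 12.20 in WT Tconv. In KI mice the Tregs read 12.06, 12.05, 11.84 and 12.17 and the Tconv 12.20, 12.11, 12.13 and 12.39. All 4 WT Treg arrays lay below the WT Tconv arrays, whereas the KI groups overlapped. Gimap4 was 1.17-fold lower in WT Tregs (log2 difference -0.23, SE 0.07, adjusted p = 0.0129) and 1.13-fold lower in KI Tregs (-0.18, SE 0.07, adjusted p = 0.0437). The KI call was narrow. It was lost without KI Treg array 3 (log2 difference -0.12, adjusted p = 0.164), without KI Tconv array 4 (-0.12, adjusted p = 0.158) and, with adjusted p from 0.0507 to 0.0704 and log2 differences of -0.18 to -0.19, without any 1 of KI Treg arrays 1 and 2, KI Tconv array 1, WT Treg arrays 1 and 2 and WT Tconv arrays 2 and 3. Without arrays 24 to 27 it held (-0.16, adjusted p = 0.0391), as did the WT call (-0.23, adjusted p = 0.00793).

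The other Gimap4 probe set read 11.28, 11.45, 11.44 and 11.39 in WT Tregs and 11.81, 11.70, 11.70 and 11.65 in WT Tconv. It read 11.52, 11.60, 11.25 and 11.72 in KI Tregs and 11.59, 11.58, 11.55 and 11.84 in KI Tconv. Here too the WT groups were separate and the KI groups overlapped. Fitted over all 18621 probe sets that passed the filter, its log2 difference was -0.33 in WT mice (SE 0.08, adjusted p = 0.00726) and -0.12 in KI mice (SE 0.08, adjusted p = 0.30), and in that fit the first Gimap4 probe set missed the threshold in KI mice (adjusted p = 0.052). Without arrays 24 to 27 the second probe set differed by -0.35 in WT mice (adjusted p = 0.00471) and by -0.12 in KI mice (adjusted p = 0.272). In all, 5 of the 9 GIMAP probe sets passed in WT mice, against 28.9% of all probe sets, and 3 of 9 in KI mice, against 36.6%. The lower Gimap4 level of Tregs therefore rests on both probe sets in WT mice and on neither of them firmly in KI mice.

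Gimap6, which is known to bind the autophagy protein Gabarapl2 and to be needed for normal T cell survival, read 9.82, 10.05, 10.02 and 9.90 in WT Tregs and 10.31, 10.30, 10.31 and 10.01 in WT Tconv. The KI Tregs read 10.17, 10.15, 9.83 and 9.91 and the KI Tconv 10.45, 10.36, 10.30 and 10.25. Every KI Treg array lay below every KI Tconv array, and in WT mice Tconv array 4, well below the other WT Tconv arrays, fell among the Tregs. Gimap6 was 1.22-fold lower in WT Tregs (log2 difference -0.29, SE 0.09, adjusted p = 0.0157) and 1.25-fold lower in KI Tregs (-0.32, SE 0.09, adjusted p = 0.00667). The WT call was lost without WT Treg array 1 (log2 difference -0.24, adjusted p = 0.0577). Without arrays 24 to 27 the differences were -0.34 in WT (adjusted p = 0.00781) and -0.32 in KI mice (adjusted p = 0.0112), and within those arrays -0.12 and -0.33.

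Gimap6 and Gimap7, neighbours on opposite strands, thus changed in opposite directions. This pair was chosen after its values were seen and is described without a test. Within arrays, the log2 value of Gimap7 less that of Gimap6 averaged 0.25 ± 0.15 (SD, n = 4, range 0.10 to 0.41) in WT Tregs and -1.02 ± 0.11 in WT Tconv. In KI mice it averaged 0.33 ± 0.27 in Tregs and -1.25 ± 0.44 in Tconv. The difference of the 2 probe sets was above 0 on all 8 Treg arrays and below 0 on all 8 Tconv arrays. Only its change between cell types can be read, since levels of different probe sets are not on a common scale.

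Gimap1, which is needed for the survival of mature T and B cells, read 9.93, 9.99, 10.07 and 9.90 in WT Tregs and 9.74, 9.82, 9.88 and 9.71 in WT Tconv. These groups did not overlap, yet the log2 difference of 0.19 did not pass (SE 0.08, adjusted p = 0.101). In KI mice the Tregs ran from 9.87 to 10.08 and the Tconv from 9.60 to 10.04, with a log2 difference of 0.13 (SE 0.08, adjusted p = 0.227). Gimap1 is thus the 1 gene of the family whose groups were apart in WT mice without a call. In WT mice 4 of the 8 genes had groups that did not overlap (Gimap7, Gimap3 and Gimap1 higher in Tregs, Gimap4 lower), beside 37.2% of all genes. In KI mice 3 of 8 did (Gimap7 and Gimap3 higher, Gimap6 lower), beside 34.7%.

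Gimap5, the survival factor of resting T cells, read 7.31, 7.53, 7.13 and 7.05 in WT Tregs and 7.22, 7.07, 7.15 and 6.79 in WT Tconv. Its KI arrays all lay between 7.09 and 7.19. The log2 difference between Tregs and Tconv was 0.19 in WT mice (95% interval -0.02 to 0.41, adjusted p = 0.157) and 0.04 in KI mice (-0.17 to 0.26, adjusted p = 0.777). The WT arrays were more spread than the KI arrays, with SDs of 0.21 and 0.19 against 0.03 and 0.03, and this spread was not tested.

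Gimap8, a long family member with several GTP-binding domains in 1 chain, ran from 11.48 to 11.79 on the WT Treg arrays and from 11.71 to 11.94 on those of WT Tconv. In KI mice it ran from 11.39 to 11.89 in Tregs and from 11.44 to 11.93 in Tconv. The groups overlapped in both genotypes, with log2 differences of -0.15 (95% interval -0.38 to 0.07, adjusted p = 0.298) and -0.01 (-0.24 to 0.22, adjusted p = 0.965). Gimap9 had the narrowest range of the family, from 10.02 to 10.26 over all 16 arrays. Its log2 differences were -0.06 in WT mice (95% interval -0.16 to 0.05, adjusted p = 0.412) and -0.06 in KI mice (-0.16 to 0.05, adjusted p = 0.399). As a ratio of Tregs to Tconv, the WT interval of Gimap9 ran from 0.893 to 1.03.

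**Figure D2:**
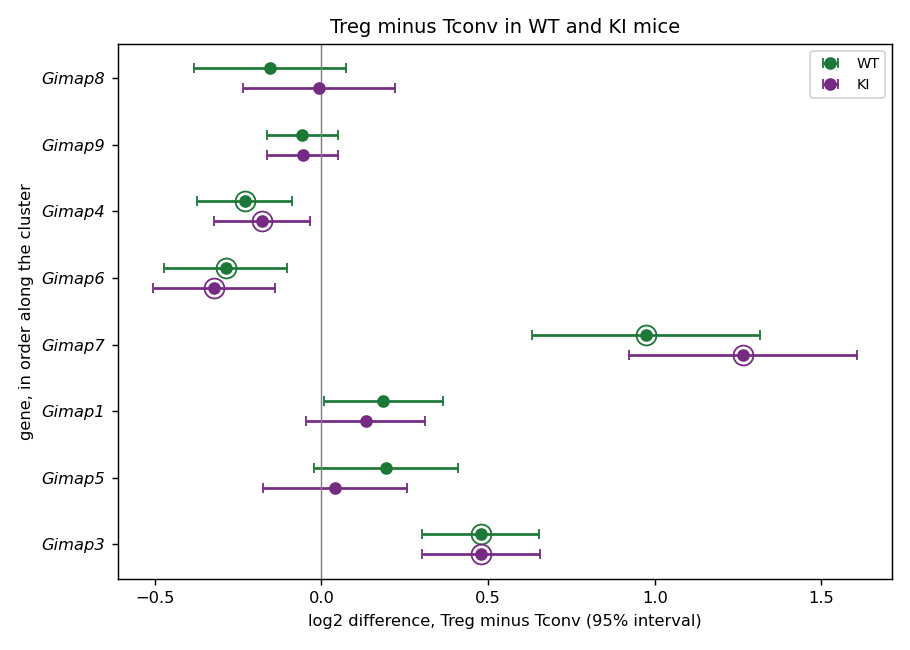
Log2 difference between Tregs and Tconv for the 8 GIMAP genes in the order of the cluster, in WT and in KI mice, with 95% intervals from the limma fit on 16 arrays. Rings mark an adjusted p under 0.05, and Gimap7 at 0.98 and 1.27 stands to the right of the 7 other genes, which lie between -0.32 and 0.48.

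KI and WT cells were compared next within each cell type. Since the WT mice carry the Foxp3-EGFP/cre transgene, this sets the knock-in allele against that transgene and does not isolate the allele. No GIMAP gene passed in Tregs, where 2.84% of all genes did, and none passed in Tconv, where 0.135% did (limma, adjusted p under 0.05). At an unadjusted p under 0.05 the count was 0 of 8 in both cell types as well, and the share of all genes at that level is not given here. The KI minus WT log2 differences ran from -0.10 for Gimap5 to 0.16 for Gimap7 in Tregs, and from -0.22 for Gimap8 to 0.10 for Gimap6 in Tconv. All 8 genes had overlapping KI and WT groups in both cell types, while 8.12% of all genes in Tregs and 3.74% in Tconv did not overlap.

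The intervals show what size of change these arrays could have missed. The widest 95% bounds of the 8 genes in Tregs reached from -0.31 (Gimap5) to 0.50 (Gimap7) on the log2 scale, a span from 1.24-fold lower to 1.41-fold higher. In Tconv they reached from -0.48 (Gimap7) to 0.29 (Gimap6), or from 1.39-fold lower to 1.22-fold higher. With the 3 sets of array numbers as a block, Gimap7 stood above these bounds, at 0.74 in Tregs and 0.45 in Tconv. Larger changes are therefore not excluded. None of the 8 genes passed the interaction (limma), against 0.786% of all genes. The interaction asks whether the genotype difference itself differs between Tregs and Tconv. None of the 8 had an unadjusted p under 0.05 there, and the share of all genes at that level is not given here. The Gimap7 interaction was 0.29 (SE 0.23, 95% interval -0.19 to 0.77, adjusted p = 0.864), so the larger Treg excess in KI mice was not shown to differ from that in WT mice.

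**Figure D3:**
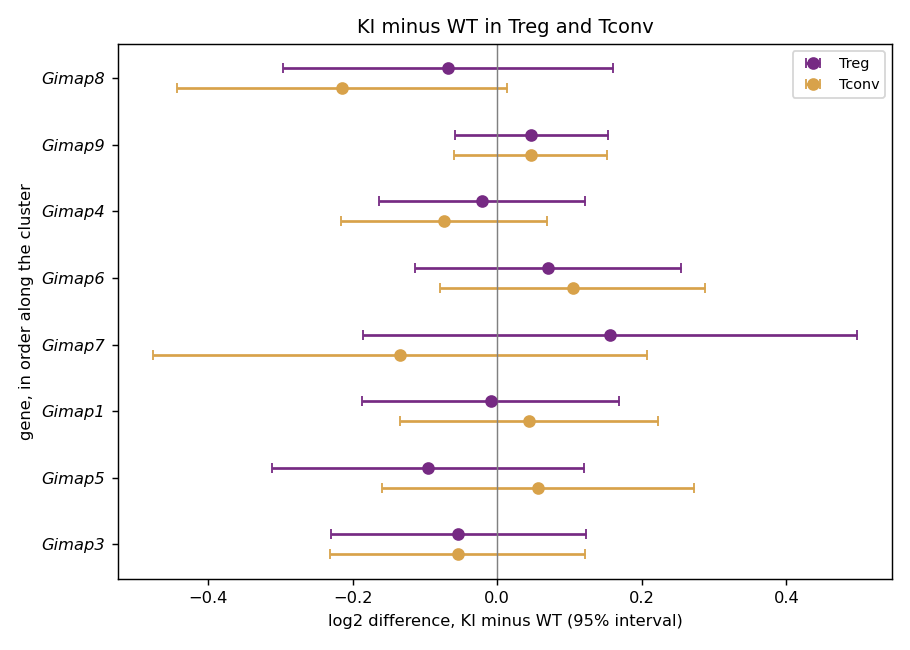
Log2 difference between KI and WT for the 8 GIMAP genes in Tregs and in Tconv, in the order of the cluster, with 95% intervals from the limma fit on 16 arrays. All 16 intervals include 0, and those of Gimap7 are the widest.

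These genotype values moved with the array numbers. Within arrays 24 to 27, with 1 array of each group and no test, KI was above WT for all 8 genes in Tregs (log2 differences 0.01 to 0.65) and for all 8 in Tconv (0.09 to 0.54). The 8 genes were read on the same arrays, and the share of all genes with KI above WT is not given here. These counts are therefore not a result about the family. Gimap7 gave both highest values. Without these arrays its KI minus WT difference was -0.01 in Tregs (adjusted p = 0.978) and -0.36 in Tconv (adjusted p = 0.206), compared with 0.16 and -0.13 on all arrays. With the 3 sets of array numbers as a block it was 0.74 in Tregs (SE 0.18, adjusted p = 0.0856) and 0.45 in Tconv (adjusted p = 1). No GIMAP gene passed in either cell type with the block or without the 4 arrays. Outside arrays 24 to 27 the genotypes had separate array numbers, so there genotype and array set cannot be told apart.

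Gimap8 in Tconv had the lowest unadjusted p of the 8 genes between the genotypes, 0.0632 (limma, adjusted p = 0.828). The WT Tconv read 11.87, 11.94, 11.88 and 11.71 and the KI Tconv 11.71, 11.46, 11.44 and 11.93. Array 4 was the lowest of the WT and the highest of the KI arrays. The log2 difference was -0.22 on all arrays (SE 0.11), -0.36 without arrays 24 to 27 (adjusted p = 0.0698) and 0.21 within them. With weights that limma estimated for each array, which were lowest for KI Treg array 4 and KI Tconv array 4, it was -0.35 and passed (adjusted p = 0.0312).

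On several arrays most GIMAP genes lay on the same side of their group means. On KI Treg array 3 and on WT Tconv array 4 all 8 genes lay below their group means, by 0.14 and 0.13 (log2) on average. KI Tconv array 3 had 7 of the 8 below, by 0.13 on average. On KI Tconv array 4 and KI Treg array 4, 6 of the 8 lay above, by 0.16 and 0.12 on average, with Gimap7 highest at 0.51 and 0.30. WT Treg array 2 and WT Tconv array 2 had 7 of the 8 above, by 0.07 and 0.05 on average. The median deviation of all tested genes stayed between -0.06 and 0.07 on every array. This is a description of 16 arrays without a test, and what set these arrays apart was not tested.

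**Figure D4:**
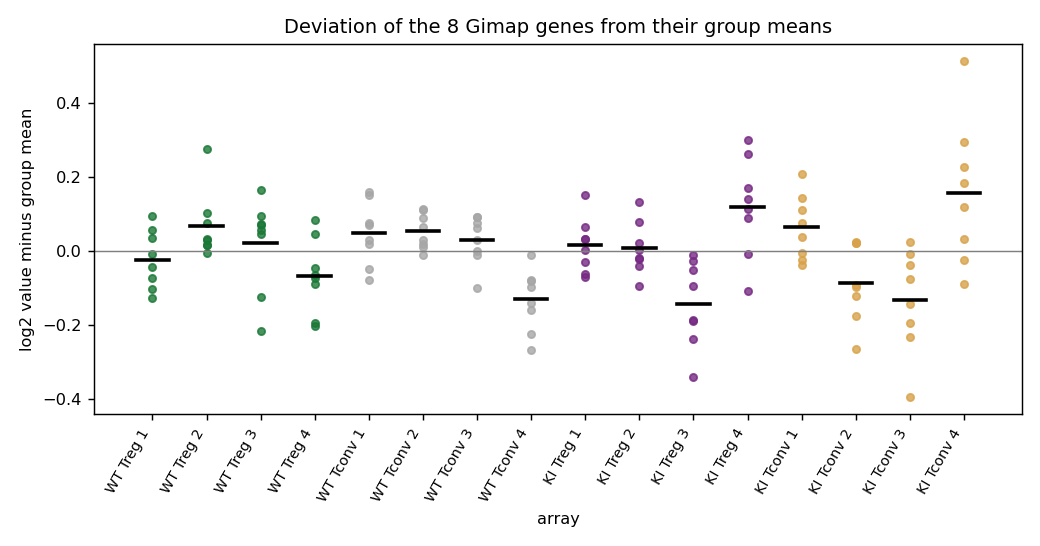
Deviation of each GIMAP gene from the mean of its group (log2) on each of the 16 arrays, with 8 points an array and a bar at their mean. KI Treg array 3 and WT Tconv array 4 have all points below 0, and KI Tconv array 4 has the highest point, Gimap7 at 0.51.

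Genes from the stretch of chromosome 6 around the cluster were looked at next. Of 10 genes listed from this stretch of chromosome 6, 6 were tested, and 3 of these were higher in Tregs in both genotypes and none lower, beside 16.7% of all genes higher in WT and 21.2% in KI mice. Lrrc61, a leucine-rich repeat protein, averaged 7.19 ± 0.25 (SD, n = 4) in WT Tregs and 5.97 ± 0.17 in WT Tconv (log2 difference 1.21, SE 0.13, adjusted p = 4.12e-07), and differed by 1.16 in KI mice (adjusted p = 5.33e-07). The proton pump subunit gene Atp6v0e2 differed by 0.97 and 0.94 (adjusted p = 6.11e-05 and 6.96e-05), and the zinc finger gene Zfp467 by 1.14 and 1.10 (adjusted p = 4.51e-06 and 5.39e-06). Their Tconv means were 5.09 and 5.08 for Atp6v0e2 and 4.52 and 4.54 for Zfp467, the latter under the highest nonspecific control, so that these differences can understate the true ones. Zfp775 (-0.10 and -0.12), Tmem176b (0.08 and -0.10) and Krba1 (0.02 and -0.19) did not pass. Zfp775 and Tmem176b were the tested genes nearest the cluster on either side. Lrrc61 and Atp6v0e2 lie farther out, and Zfp467 and Krba1 farther still, so the raised genes were not the nearest tested ones. The group means of Zfp775, from 4.78 to 5.11, lay near background, so a difference there could have been missed. Repin1, Rarres2, Tmem176a and Aoc1 were too low to be tested. The median of the 6 tested genes was 0.52 in WT and 0.42 in KI mice, beside 0.06 and 0.02 for the GIMAP genes and -0.03 and -0.02 over all genes.

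The BCL2 family holds the regulators of apoptosis with which Gimap3 and Gimap5 have been reported to associate. Of 10 tested members, 5 were higher in WT Tregs and none lower, with a median log2 difference of 0.34, and in KI mice 7 were higher and 1 lower, with a median of 0.54. Of all genes, 16.7% were higher and 17.9% lower in WT Tregs, and 21.2% higher and 19.9% lower in KI Tregs. Pmaip1, the death-promoting protein Noxa, was higher by 2.89 and 3.0 in WT and KI mice (SE 0.27, adjusted p = 1.07e-07 and 4.86e-08). The death-promoting Bid was higher by 1.08 and 1.62 (adjusted p = 2.96e-06 and 1.06e-08) and the survival gene Bcl2l1, which encodes Bcl-xL, by 1.01 and 1.51 (adjusted p = 2.32e-05 and 1.22e-07). Bcl2l2, another survival gene, was higher by 0.77 and 1.00 (adjusted p = 0.000386 and 1.92e-05), with Tconv means of 4.90 and 4.58 near background, so that these differences can understate the true ones. The fifth WT call was Bcl2l11, the death-promoting protein Bim, at 0.29 (adjusted p = 0.0296), named here after its value was seen. Bcl2 itself was lower in KI Tregs (-0.32, adjusted p = 0.0358) and stood at -0.10 in WT (adjusted p = 0.564). The members that rose thus included survival and death-promoting genes. Without arrays 24 to 27 the KI count was 7 higher and 0 lower, so the Bcl2 call was lost.

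Other partners and relatives are read against the same shares, 34.6% of all genes called in WT and 41.1% in KI mice. Of the ATG8 autophagy proteins, to which the Gimap6 partner belongs, 2 of 4 tested genes were higher in Tregs in each genotype. These were Gabarapl1 (1.82 and 1.94, adjusted p = 8.53e-07 and 2.79e-07) and Gabarap (0.29 and 0.27, adjusted p = 0.00832 and 0.0121), while Gabarapl2 stood at -0.00 and 0.06. The Gabarapl1 Tconv means, 5.15 in WT and 5.16 in KI mice, lay near background, so that its differences can understate the true ones. GSK3 and quiescence signalling has been reported to act with Gimap5. Of 9 tested genes of this list none passed in WT mice (limma), where 2 were higher and 1 lower at an unadjusted p under 0.05. The share of all genes at that unadjusted level is not given here, and is no smaller than the 34.6% called after adjustment. In KI mice 1 gene passed, Tsc1, at -0.17 (adjusted p = 0.0497). That call was lost without arrays 24 to 27. Of the 6 septins tested, Septin11 (0.54 and 0.48), Septin9 (0.24 and 0.28) and Septin7 (0.13 and 0.15) were higher in Tregs in both genotypes (adjusted p between 0.000289 and 0.0476), and Septin6 was lower in KI Tregs (-0.29, adjusted p = 0.03). Without arrays 24 to 27 only 2 septins were higher in WT Tregs, while the KI counts stayed at 3 higher and 1 lower.

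Among 9 tested genes of other lymphocyte GTPases and their regulators, 3 were higher and 2 lower in WT Tregs. In KI mice 4 were higher and 2 lower. The 5 of 9 called in WT and 6 of 9 in KI mice stand beside 34.6% and 41.1% of all genes. Without arrays 24 to 27 the WT counts were 2 higher and 3 lower, and the KI counts stayed at 4 and 2. Rhoh, a GTPase needed for T cell receptor signalling, was higher by 0.72 and 0.85 (adjusted p = 1.94e-06 and 1.89e-07) and the exchange factor Dock2 by 0.30 and 0.55 (adjusted p = 0.00199 and 3.31e-06). Rac2 made up the WT count at 0.22 (adjusted p = 0.0408), named after its value was seen, and passed in KI mice at 0.24 (adjusted p = 0.0215). The small GTPase gene Rap1a was higher in KI Tregs (0.25, adjusted p = 0.00393) and stood at 0.10 in WT (adjusted p = 0.229). Rasgrp1, an exchange factor that activates Ras, was lower by -0.36 and -0.26 (adjusted p = 7.91e-05 and 0.00178). Rasgrp2, which activates Rap1, differed by -0.76 and -1.33 (adjusted p = 1.82e-06 and 7.06e-10). Unlike any GIMAP gene, Rasgrp2 passed the genotype comparison in Tregs (KI minus WT -0.47, SE 0.09, adjusted p = 0.00651) and the interaction (-0.57, adjusted p = 0.0342). With the array sets as a block the former was -0.46 (adjusted p = 0.185) and the latter -0.57 (adjusted p = 0.0202), and without arrays 24 to 27 the interaction was -0.57 (adjusted p = 0.10). Without those arrays the KI minus WT difference in Tregs was -0.46 and passed (adjusted p = 0.0211), and within them it was -0.47.

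The naive and quiescence program, which resting T cells express along with the GIMAP genes, moved mostly down in Tregs. Of 12 tested genes 7 were lower in WT Tregs and none higher, with a median log2 difference of -0.31, and in KI mice 10 were lower and none higher, with a median of -0.42. Of all genes, 17.9% were lower in WT and 19.9% in KI Tregs. Igfbp4 was lower by -3.15 and -3.27 (SE 0.11, adjusted p = 1.4e-13 and 4.88e-14), and the transcription factor gene Lef1 by -1.27 and -1.5 (adjusted p = 3.98e-08 and 3.39e-09). Satb1, a chromatin organiser, was lower by -0.74 and -0.76 (adjusted p = 1.75e-08 and 9.02e-09). Of the GIMAP genes 2 were higher and 2 lower in each genotype, and the difference between the lists was not tested. Between genotypes, Bach2 (-0.28, adjusted p = 0.031), Btg1 (-0.18, adjusted p = 0.0136) and Slfn2 (-0.31, adjusted p = 0.0144) were lower in KI than in WT Tregs. With the array sets as a block the values were -0.14, -0.14 and -0.31 and none passed (adjusted p = 0.848, 0.566 and 0.257). Without arrays 24 to 27 all 3 passed (-0.33, -0.20 and -0.32, adjusted p = 0.0219, 0.0204 and 0.0296). S1pr1, named after its value was seen, passed there too (-0.79, adjusted p = 0.013) and stood at 0.18 within those arrays.

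The genes most alike the family were found by the root mean square difference of centred log2 values over the 16 arrays, with no test. Against the mean of the 8 GIMAP genes the nearest were Virma (0.05), Katna1, Fam89b, M6pr, Phf20l1 and Actg1 (0.08), where the median gene stood at 0.22. That mean profile ranged over only 0.42 log2 units, so genes that vary little come out as alike. For Gimap7 alone, a profile added after its values were seen, the nearest were Prkca (0.17), Arhgap18, Atxn1, Prr13, Itgav and Trim14 (0.20), against 0.64 for the median gene. Prkca differed between Tregs and Tconv by 1.04 in WT and 1.29 in KI mice. Gimap3 was the nearest member of the family to Gimap7, at rank 399 of 8138 genes, and Gimap6 the farthest, at rank 6671.

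Markers of other cells moved with cell type as well. The level of a list is given as the log2 of its members' summed linear values, and its range is over the 4 arrays of a group. NK cell genes, 6 of 6 measured, summed to 7.21 to 7.85 in WT Tregs and 8.64 to 8.91 in WT Tconv, and to 7.31 to 7.77 and 8.61 to 8.93 in KI mice, although the defining Ncr1, Klrb1c and Klrk1 were never above 5. Klrd1 (3.89 against 7.77 in WT, 4.31 against 7.67 in KI mice) and Prf1 (5.22 against 7.03, 5.28 against 7.20) carried that sum, while Eomes was higher in Tregs (6.61 against 5.68, 6.52 against 5.70). The 2 CD8 T cell genes summed to 7.11 to 7.46 in WT Tregs and 6.20 to 6.53 in WT Tconv, and to 6.85 to 7.27 and 6.55 to 6.93 in KI mice, where the summed values overlapped. Cd8a alone was higher in Tregs without overlap in both genotypes (means 6.43 against 4.08 in WT, 6.10 against 4.28 in KI mice), with its Tconv means near background. Cd8b1 averaged 6.09 against 6.01 in WT and 6.16 against 6.42 in KI mice. Of the 6 dendritic cell genes 5 were measured, and they summed to 9.86 to 10.22 in WT Tregs against 9.19 to 9.67 in WT Tconv, and to 9.85 to 10.51 against 9.26 to 9.61 in KI mice, with Itgax, Flt3 and Xcr1 never above 5. Cst3 (means 9.81 against 9.31 in WT, 9.91 against 9.26 in KI mice) and Irf8 (6.89 against 5.26, 7.35 against 5.5) carried that sum. The plasma cell genes, 2 of 3 measured, summed to 10.60 to 11.03 against 9.97 to 10.44 in WT mice and to 10.50 to 11.08 against 9.80 to 10.44 in KI mice. Xbp1, which T cells also express, carried the sum (means 10.59 against 9.92 in WT and 10.61 against 9.92 in KI mice), while Jchain averaged 6.77 against 7.20 and 7.34 against 6.95. Their part in the GIMAP differences was not tested. B cell genes, 7 of 8 measured, had sums that overlapped between Tregs and Tconv in both genotypes, with Cd79a, Ebf1, Pax5 and Blk never above 5. Within that list Cd79b was higher in KI Tregs without overlap (means 6.99 against 5.61) and overlapped in WT mice (7.41 against 6.26). The sums of monocyte, neutrophil and erythroid genes overlapped in both genotypes too, the neutrophil sums most spread, from 6.08 to 11.86 in WT Tregs. In the monocyte list Cd68 was higher in WT Tregs without overlap (5.04 against 3.92, near background) and overlapped in KI mice (5.22 against 3.98). Endothelial cells also express several GIMAP genes, and 0 of their 6 marker genes reached 5 on any array. T cell genes, 5 of 6 measured, summed to between 13.27 and 13.63 on all arrays. Within that list Cd4 was lower in Tregs without overlap (means 7.25 against 7.96 in WT, 7.5 against 7.99 in KI mice). Cd5 was higher in Tregs without overlap (11.48 against 10.86, 11.54 against 10.95), while Cd3e, Cd3d and Cd3g overlapped.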

How the data were processed

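The deposited log2 expression values were made by the authors with RMA in Partek 6.5, per the submitters' processing notes. RMA corrects background, gives every array the same distribution and combines a probe set's probes into 1 value. Its options are not given in the sources used here. Values ran from 1.95 to 13.9, and 2 arrays of a group correlated at 0.989 to 0.997 across probe sets. The number of arrays limits the precision.

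Each gene was represented by its probe set with the highest mean over 16 arrays, and 8139 genes that exceeded a log2 value of 5 on 4 or more arrays were tested, all 8 GIMAP genes among them. Group means were fitted with limma 3.58.1 in R 4.3.3 (moderated variances with a trend, two-sided p-values, Benjamini-Hochberg adjustment over all genes, threshold 0.05), and again over 18621 probe sets. The fit was tested on simulated data. Intervals are at 95% and unadjusted.

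The members and the gene lists were chosen with earlier results of these data known. All members are named, and from each list up to 4 genes with the lowest p between WT Tregs and WT Tconv and up to 4 between KI and WT Tregs, with every gene listed from around the cluster. Symbols come from the array annotation, updated through RefSeq. Alternatives were the filter, the variance trend, the probe set of a gene, the normalization, the array numbers, array weights and leaving out each array. Probe and protein sequences were not used here.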

Additional observations from a re-analysis of the deposited data

Results flagged for a closer look

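In 3 of the 36 groups of 4 arrays examined (9 probe sets in 4 groups), 1 array stood apart from the other 3 by more than Dixon's 95% limit, and chance alone flags about 5% of groups. Gimap6 read 10.01 on WT Tconv array 4, the lowest of its group, with the next array at 10.30. Gimap3 read 9.90 on KI Treg array 4, the highest of its group, with the next at 9.69. The second probe set of Gimap4 read 11.84 on KI Tconv array 4, the highest of its group, with the next at 11.59. All 3 arrays belong to those numbered 24 to 27, and the cause was not tested.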

How the results depend on the processing

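Of 1120 values of single GIMAP genes under an alternative, 1038 kept their direction and their side of the threshold, or moved by less than the spread between arrays. No called difference changed sign. Many of these estimates could not move, so the count is not a measure of robustness. Leaving out an array of 1 genotype leaves the Treg and Tconv difference of the other as it was, and only its p-value can change. The array sets as a block left the Treg and Tconv differences as they were too. Gimap7 and Gimap3 passed between Tregs and Tconv in both genotypes under every alternative tested. Gimap4 in KI mice, at -0.18 with an adjusted p of 0.0437, was lost with no filter on low values (adjusted p = 0.0691), with no variance trend (0.0837), with array weights (0.0734), with its most variable probe set (log2 difference -0.12, adjusted p = 0.294) and with the mean of its probe sets (-0.15, adjusted p = 0.126). Gimap1 in KI mice passed with array weights (0.27, adjusted p = 0.00359). With array weights 1 GIMAP gene passed between KI and WT Tconv, Gimap8. Over all genes, the KI minus WT count in Tregs (231) was 29 with 3 array sets as a block, 1715 with array weights, 410 without arrays 24 to 27 (an alternative added after the data were seen), and 90 to 558 when 1 array was left out (90 without KI Treg 1, 106 without WT Treg 1, 121 without KI Treg 2, 130 without WT Treg 3, 142 without WT Treg 4, 558 without KI Treg 4). The count in Tconv (11) was 5, 249 and 105 in the same order, and 7 (without KI Tconv 2) to 65 (without KI Tconv 4) when 1 array was left out. The interaction count (64) was 453 with array weights and 32 (without KI Treg 1) to 104 (without KI Tconv 4) when 1 array was left out, with 42 without WT Treg 1. The cause of these shifts was not tested. No paired analysis was possible because the labels give no replicate numbers shared between the groups.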
